A study of Zea mays with 12 samples.

Results

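Roots of B73 maize seedlings that had received nitrate together with PCIB were compared with roots that had received no nitrogen. The comparison covered every entry of the expression table with at least 5 FPKM (fragments counted over a transcript, relative to transcript length and to all mapped fragments) in either group, which were 15622 of 26451 entries (59.1%). Primary roots were sampled in both groups. The roots with both agents grew for 24 h in nutrient solution with 1 mM nitrate and 10 µM PCIB (+NO3_plus_PCIB), and the control roots for 24 h in solution deprived of nitrogen (-N_control), in both cases after 3 days of germination. Levels are also given for the other groups of the study: roots with 1 mM nitrate alone (+NO3), and roots with 2 µM TIS108, an inhibitor of strigolactone synthesis, without nitrogen (-N_plus_TIS108), grown for the same time. Each group had 3 biological replicates of 4 to 8 pooled plants, but the table gives 1 value per entry and group. All differences below are therefore descriptions of 2 columns, with no replicate check, no SD and no p-value, and the sequencing depth is unknown. Nitrate and PCIB both differ between the groups, so their parts in any difference cannot be told apart in this comparison. The sources used here do not say whether the control solution held the solvent of the inhibitor.

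Nitrate is both the main nitrogen source of most crop roots and a signal that changes the expression of genes of its own uptake and assimilation. Auxin directs root growth and the formation of lateral roots. It binds TIR1/AFB receptors, which leads to the breakdown of Aux/IAA repressors and frees ARF transcription factors. PCIB (p-chlorophenoxyisobutyric acid) interferes with this pathway. Several plant microRNA families act on the same circuits: in Arabidopsis miR167 and miR160 target ARF genes and miR393 targets TIR1/AFB genes.

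The 15622 entries comprised 15388 nuclear gene models, 206 RNA genes with an ENSRNA identifier, 13 microRNA loci, 14 mitochondrial entries and 1 plastid gene. Both groups reached 5 FPKM in 14143 entries, while 693 entries reached it with nitrate plus PCIB alone and 786 in the control alone. Summed FPKM over the whole table was 483955 with nitrate plus PCIB and 497447 in the control. The 100 most abundant entries held 12.7% of this sum with nitrate plus PCIB and 13.1% in the control, and 82 of them were the same entries. The photosystem genes psbA and psaB, looked at for green tissue, were at 1.04 and 0.222 FPKM under nitrate plus PCIB, against 0.487 and 0.117 FPKM in the control. Some other plastid genes were higher. Under nitrate plus PCIB petA was at 5.03 and cemA at 3.14 FPKM, against 3.73 and 2.89 FPKM in the control. How far the selection of polyadenylated RNA shaped plastid values was not tested, so the share of green tissue is not known. Nuclear markers of root cell types could not be picked out, because the identifiers of nuclear genes could not be paired with gene names here. At the 5 FPKM minimum, the 20 entries just inside had at most 5.01 FPKM in the higher group, with log2 differences of -1.32 to 1.11. The 20 just outside had at least 4.97 FPKM, with log2 differences of -0.96 to 0.60.

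The typical entry stood at the same level in both groups, and a small number of entries differed widely. Differences are given as log2(FPKM + 1) with nitrate plus PCIB minus log2(FPKM + 1) in the control, a scale that understates differences of low entries. The median was 0.00, with 7841 entries above and 7780 below the control. The middle 50% of entries lay between -0.19 and 0.16, and 86.1% lay within 0.5 of 0. The limit for calling an entry different was 2-fold on this scale. By it 299 entries (1.91%) were higher and 312 (2.00%) lower with nitrate plus PCIB. With a pseudocount of 5 in place of 1, which discounts entries of low level, 173 were higher and 109 lower, so that 61.3% of the entries past the limit were higher instead of 48.9%.

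**Figure D1:**
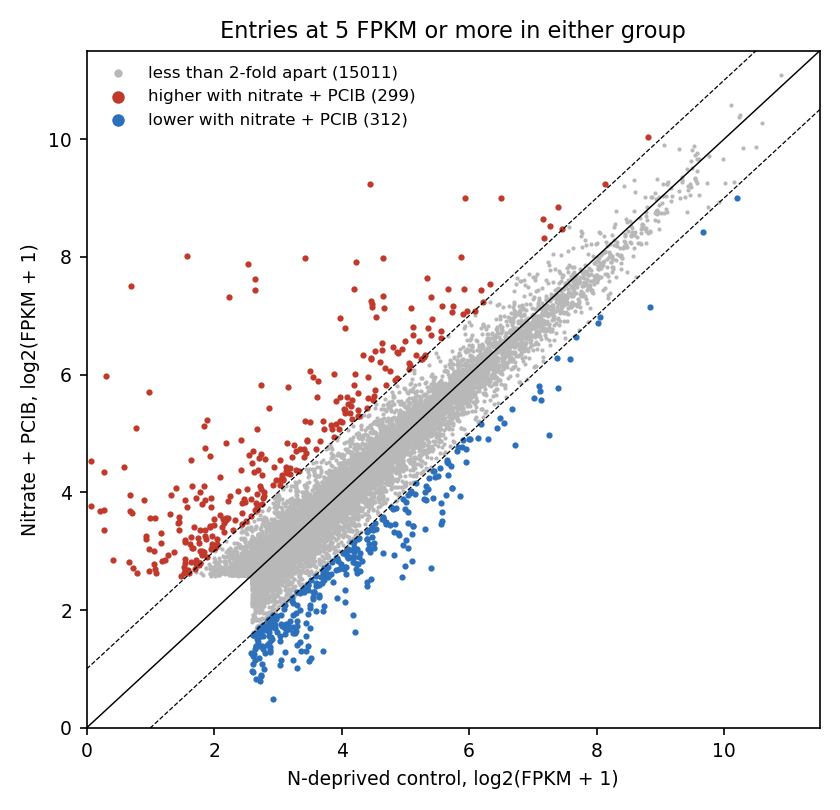
Each point is 1 of the 15622 entries, with log2(FPKM + 1) in the N-deprived control on the horizontal axis and log2(FPKM + 1) with nitrate plus PCIB on the vertical axis. The solid line marks equal levels and the dashed lines the 2-fold limit. The 299 higher entries (red) reach much farther from the line than the 312 lower ones (blue).

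The numbers of higher and lower entries were close at 2-fold and parted at wider limits. At least 4-fold apart were 79 higher entries (0.506%) and 18 lower ones (0.115%). At 8-fold there were 27 higher (0.173%) and 0 lower entries, and at 16-fold 13 higher (0.0832%) and 0 lower. The widest log2 difference was 6.81 on the higher side and -2.69 on the lower side. Among the higher entries, 24 were below 1 FPKM in the control, and among the lower entries 8 were below 1 FPKM with nitrate plus PCIB. At 5 FPKM or more in both groups, where the minimum itself forces no difference, stood 164 of the higher and 153 of the lower entries. Of all distinct entries so filtered, 1.16% were higher and 1.08% lower. The other 135 higher and 159 lower entries passed the minimum through 1 group alone.

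**Figure D2:**
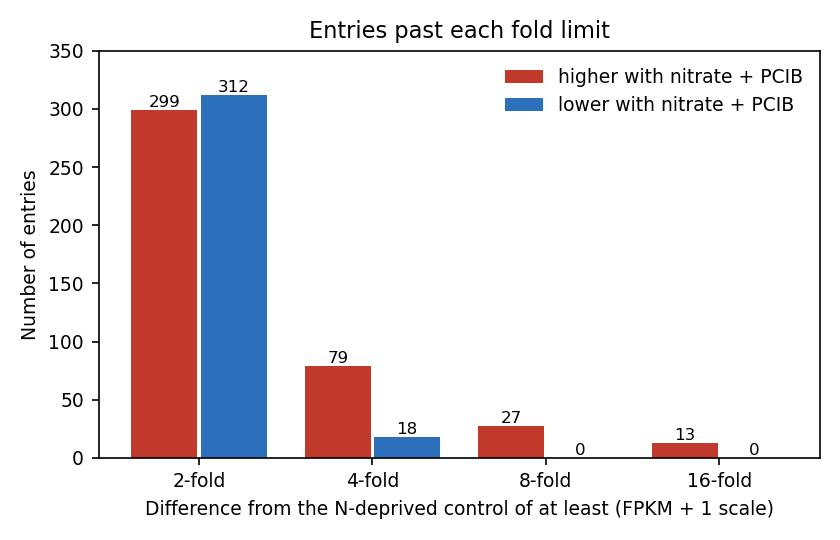
Bars give the number of entries at least 2-, 4-, 8- and 16-fold higher (red) or lower (blue) with nitrate plus PCIB than in the N-deprived control, on the FPKM + 1 scale. The 2 directions are nearly even at 2-fold (299 higher and 312 lower), while 27 entries are higher and 0 lower by 8-fold.

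The nuclear genes with the widest differences are given by identifier. Zm00001d007285 was at 180 FPKM with nitrate plus PCIB and 0.614 FPKM in the control, a ratio of 293. It was at 0.477 FPKM with nitrate alone and 1.73 FPKM with TIS108. Of the 4 groups only the one with PCIB was thus above 2 FPKM for this gene. Zm00001d051251 was at 259 FPKM with nitrate plus PCIB and 1.97 FPKM in the control, a ratio of 132, and at 1.95 FPKM with nitrate alone and 3.04 FPKM with TIS108. On the lower side, Zm00001d037894 was at 5.55 FPKM with nitrate plus PCIB and 41.3 FPKM in the control, with 18.6 FPKM under nitrate alone and 29.7 FPKM under TIS108. Zm00001d007160 was at 2.08 FPKM with nitrate plus PCIB and 17.5 FPKM in the control, with 13.3 FPKM under nitrate alone and 6.19 FPKM under TIS108. Both lower genes had intermediate values in the other 2 groups, whereas both higher genes were low in all 3 groups without PCIB. All were chosen for their difference between nitrate plus PCIB and the control, which itself favours extreme values in those groups.

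The levels of all differing entries in the 4 groups are set side by side here. The entries were chosen by their values with nitrate plus PCIB and in the control, so the distance between those 2 groups is fixed by the choice. The choice also favours extreme values in those 2 groups beside the groups not used for it, by an amount that was not measured. Over the 299 higher entries the median was 20.5 FPKM with nitrate plus PCIB, 7.06 FPKM with nitrate alone, 5.98 FPKM with TIS108 and 5.58 FPKM in the control. Over the 79 entries higher by 4-fold the median was 28.8 FPKM with nitrate plus PCIB, 2.99 FPKM with nitrate alone, 2.64 FPKM with TIS108 and 2.61 FPKM in the control. Over the 13 entries higher by 16-fold they were 173 FPKM with nitrate plus PCIB, 2.00 FPKM with nitrate alone, 3.04 FPKM with TIS108 and 1.97 FPKM in the control. Taken group by group, the highest value among these 13 was 604 FPKM with nitrate plus PCIB and 109 FPKM with nitrate alone. It was 23.0 FPKM with TIS108 and 20.8 FPKM in the control. These maxima were not all of the same entry. Zm00001d028693, at 604 FPKM with nitrate plus PCIB, was at 16.8 FPKM with nitrate alone. The lower entries showed another order. Over the 312 lower entries the median was 4.91 FPKM with nitrate plus PCIB, 6.45 FPKM with nitrate alone, 7.46 FPKM with TIS108 and 13.2 FPKM in the control.

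**Figure D3:**
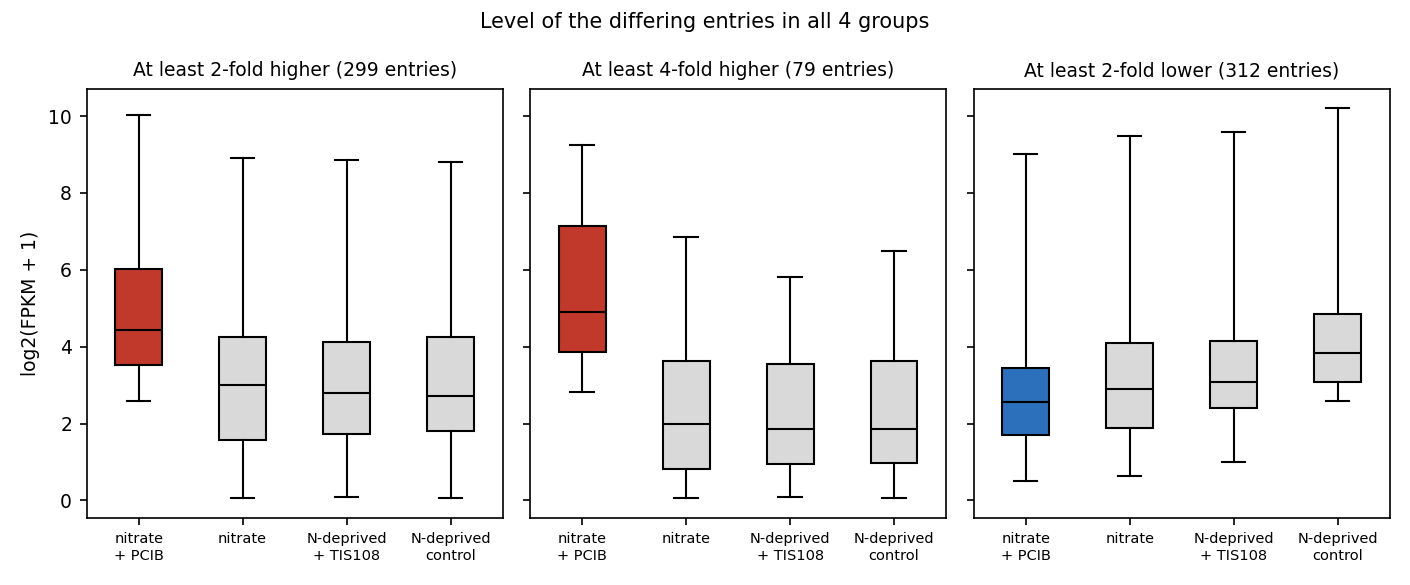
Boxes show the level, as log2(FPKM + 1), of the entries at least 2-fold higher (299), at least 4-fold higher (79) and at least 2-fold lower (312) with nitrate plus PCIB than in the N-deprived control, in all 4 groups. Boxes span the middle 50% of entries with the median as a line, and whiskers reach the lowest and highest entry. For the higher entries the 3 groups without PCIB have like medians (for the 299 entries 7.06 FPKM with nitrate alone, 5.98 FPKM with TIS108 and 5.58 FPKM in the control). For the lower entries the control stands above the other groups. Because the entries were chosen by nitrate plus PCIB and the control, part of these orders can come from the choice.

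The same limits were applied to nitrate alone and to TIS108, each against the same control column, so the comparisons are not independent and are only listed. By 2-fold, 312 entries were lower with nitrate plus PCIB, 536 with nitrate alone (3.46%) and 284 with TIS108 (1.85%), so many lower entries were found against this control in each of the comparisons. By 2-fold, 299 were higher with nitrate plus PCIB, 87 with nitrate alone (0.561%) and 3 with TIS108 (0.0195%). Higher by 8-fold were 27 entries with nitrate plus PCIB, 10 with nitrate alone (0.0645% of 15510 entries) and 0 with TIS108. Lower by 8-fold were 0 entries with nitrate plus PCIB, 0 with nitrate alone and 1 with TIS108 (0.00650% of 15381 entries). The SD of the log2 differences across entries was 0.45 with nitrate plus PCIB, 0.43 with nitrate alone and 0.34 with TIS108. These differences between comparisons were not tested.

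The share of differing entries varied with level. Level was taken as the mean of the nitrate and TIS108 columns, which the comparison does not use, since a wide difference would itself move an entry to another level; this choice was made after the data were seen. Among 5616 entries under 10 FPKM by this mean, 179 were higher (3.19%) and 185 lower (3.29%), and 54 were higher by 4-fold against 11 lower. An entry low in the nitrate and TIS108 columns can enter the comparison through a high value in 1 compared group alone. The minimum of 5 FPKM therefore adds to the shares in this low band, by an amount that was not measured. Among 1768 entries at 50 FPKM or more, 24 were higher (1.36%) and 17 lower (0.962%), and 2 were higher by 4-fold against 1 lower. The median log2 difference was 0.02 in the low entries and -0.09 in the abundant ones. Together the 299 higher entries made up 3.72% of summed FPKM with nitrate plus PCIB and 1.02% in the control. The 312 lower entries made up 0.800% with nitrate plus PCIB and 2.05% in the control.

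MicroRNA loci are genes whose transcripts are cut to microRNAs, short RNAs that pair with messenger RNAs and silence them. The values here are fragments of polyadenylated RNA over the loci, not mature microRNAs, and each of the 25 loci of the table shares its values with an ENSRNA entry, so overlapping entries cannot be told apart. Of the 13 loci that reached 5 FPKM in either group, 2 were lower and 0 higher by the 2-fold limit, against 2.00% lower and 1.91% higher over all entries. Levels exceeded the control at 8 of the 13 loci and lay below it at 5. Their median log2 difference was 0.14, beside 0.00 over all entries. Of the 13, 2 passed the minimum with nitrate plus PCIB alone and 1 in the control alone, which fixed their direction. At 5 FPKM or more in both groups were 10 loci, of which 6 exceeded the control and 4 lay below it. Their median was 0.11, and 1 of the 10 was lower by the limit, against 1.08% of all entries so filtered. The median was -0.48 when only the 6 loci at 10 FPKM or more were kept.

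MIR171f had the widest difference of all the loci. It belongs to a family that targets GRAS transcription factor genes of the HAM/SCL6 clade, which maintain meristem cells in Arabidopsis. Its locus was at 15.8 FPKM with nitrate plus PCIB and 52.4 FPKM in the control, a ratio of 0.302. It was at 40.8 FPKM with nitrate alone and 49.6 FPKM with TIS108, so the group with PCIB was the low one among the 4. MIR398b belongs to a family that targets copper/zinc superoxide dismutase genes in Arabidopsis. It was at 1.97 FPKM with nitrate plus PCIB and 5.09 FPKM in the control, with 1.75 FPKM under nitrate alone and 3.74 FPKM under TIS108. Both groups that received nitrate were thus low for MIR398b. It passed the minimum through the control alone, just above 5 FPKM, and its log2 difference of -1.03 was -0.53 with a pseudocount of 5 and -0.996, narrowly under the limit, after rescaling columns to equal sums.

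Loci of auxin- and development-linked families stood on both sides of the control, short of the limit. MIR167b, of the family that targets ARF6 and ARF8 in Arabidopsis, was at 8.74 FPKM with nitrate plus PCIB and 5.47 FPKM in the control. MIR164b, of the family that targets NAC genes including NAC1, a regulator of lateral root formation in Arabidopsis, was the most abundant locus, at 80.2 FPKM with nitrate plus PCIB and 111 FPKM in the control. It was at 106 FPKM with nitrate alone and 114 FPKM with TIS108, which again puts the group with PCIB below the other 3. MIR166d, of the family that targets class III HD-ZIP genes of vascular patterning, was at 8.61 FPKM with nitrate plus PCIB and 5.58 FPKM in the control. MIR396d, of the family that targets growth-regulating factor (GRF) genes, was at 16.4 FPKM with nitrate plus PCIB and 12.6 FPKM in the control. All 4 loci were less than 2-fold apart.

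MIR169c had the widest difference upward among the loci. Its family targets NF-YA transcription factor genes and is known for its response to nitrogen supply in Arabidopsis and maize. The locus was at 5.58 FPKM with nitrate plus PCIB and 2.65 FPKM in the control, with 8.66 FPKM under nitrate alone and 3.49 FPKM under TIS108. The log2 difference from the control was 0.85, short of the limit, and 1.05 with a pseudocount of 0.1. It passed the 5 FPKM minimum with nitrate plus PCIB alone. Both nitrate groups were above both groups without nitrogen at this locus, an order that the other MIR169 locus of the table did not share. MIR169e was at 3.83 FPKM with nitrate plus PCIB and 2.53 FPKM in the control, with 2.14 FPKM under nitrate alone and 2.38 FPKM under TIS108.

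The 4 loci of the MIR156 family, which targets SPL transcription factor genes of growth-phase change, did not share a direction. MIR156g was at 10.6 FPKM with nitrate plus PCIB and 16.4 FPKM in the control, and MIR156k was at 8.84 FPKM with nitrate plus PCIB and 12.8 FPKM in the control. MIR156d was at 8.61 FPKM with nitrate plus PCIB and 7.06 FPKM in the control, and MIR156f was at 8.43 FPKM with nitrate plus PCIB and 7.83 FPKM in the control. The MIR159 family targets GAMYB-like MYB genes. Of its loci, MIR159a and MIR159f were at 17.6 and 6.15 FPKM with nitrate plus PCIB, against 15.9 and 4.80 FPKM in the control. MIR159d, under 5 FPKM in both groups, lay below the control, at 0.982 FPKM with nitrate plus PCIB against 1.19 FPKM. MIR159f passed the 5 FPKM minimum with nitrate plus PCIB and not in the control, which fixed its direction.

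**Figure D4:**
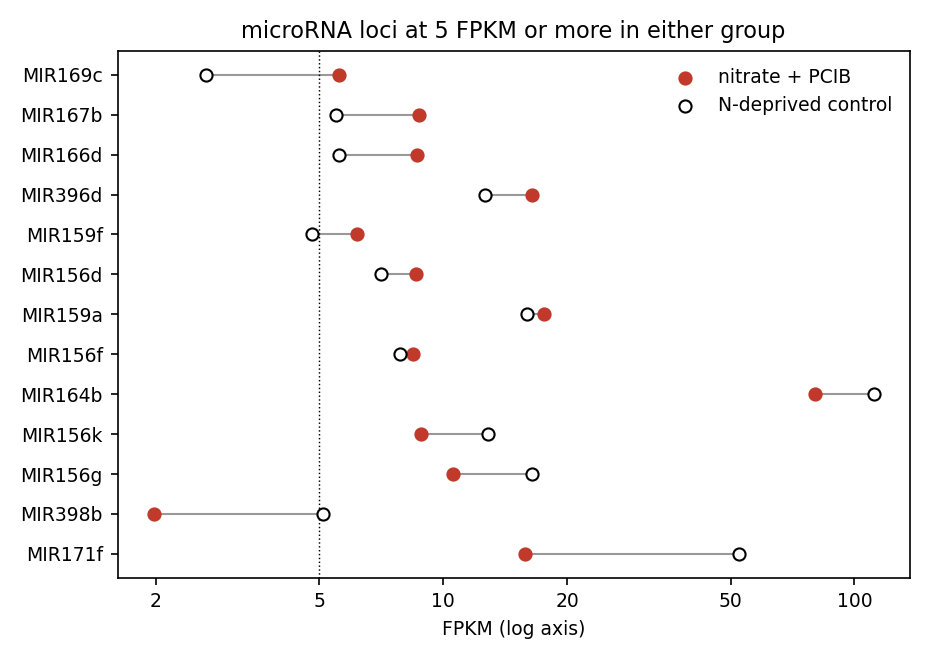
FPKM on a log axis of the 13 microRNA loci that reached 5 FPKM in either group, with nitrate plus PCIB (filled red) and in the N-deprived control (open), sorted by their log2 difference. The dotted line marks 5 FPKM. MIR171f, at 15.8 FPKM with nitrate plus PCIB and 52.4 FPKM in the control, shows the widest gap of the 2 loci past the limit, and 8 of the 13 loci lie above the control.

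The mitochondrial genome of maize encodes some subunits of the respiratory chain and of ATP synthase, with ribosomal proteins, ribosomal RNAs and transfer RNAs for their synthesis. Of the 14 mitochondrial entries that reached 5 FPKM in either group, 10 lay below the control and 4 exceeded it. Their median log2 difference was -0.32, beside 0.00 over all entries. By the 2-fold limit 1 of 14 was lower and 0 higher, against 2.00% lower and 1.91% higher over all entries. At 5 FPKM or more in both groups were 9 entries, of which 7 were below the control. Of these 9, 22.2% exceeded the control, against 50.5% of all entries at 5 FPKM or more in both groups. The direction of the set depended on the minimum: with no minimum, 30 of 56 distinct mitochondrial entries exceeded the control and 26 lay below it, and the median was 0.02.

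The entry past the limit was trnL-b, a leucine transfer RNA gene, at 5.19 FPKM with nitrate plus PCIB and 18.0 FPKM in the control. It was at 10.0 FPKM with nitrate alone and 5.14 FPKM with TIS108, so the control was the high group. The other transfer RNA gene, trnR-a, was at 6.23 FPKM with nitrate plus PCIB and 5.83 FPKM in the control. The 5S ribosomal RNA gene rrn5 was at 7.96 FPKM with nitrate plus PCIB and 13.4 FPKM in the control. These RNAs are not messenger RNAs, and how far the selection of polyadenylated RNA shaped their values was not tested.

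Among the protein-coding mitochondrial genes, atp9, which encodes the c subunit of the ATP synthase rotor, was at 24.3 FPKM with nitrate plus PCIB and 45.8 FPKM in the control. It was at 42.9 FPKM with nitrate alone and 22.5 FPKM with TIS108, so 2 groups were high and 2 low. The ATP synthase gene atp4 went the other way, at 5.98 FPKM with nitrate plus PCIB and 4.95 FPKM in the control. rps12, a protein of the small ribosomal subunit, was the most abundant mitochondrial entry, at 56.6 FPKM with nitrate plus PCIB and 85.0 FPKM in the control. nad3, a subunit of NADH dehydrogenase (complex I), was at 14.7 FPKM with nitrate plus PCIB and 19.6 FPKM in the control. cox3, a subunit of cytochrome c oxidase (complex IV), was at 6.34 FPKM with nitrate plus PCIB and 4.32 FPKM in the control. None of these 5 genes was 2-fold apart. Of them, atp4 and cox3 passed the 5 FPKM minimum with nitrate plus PCIB and not in the control, which fixed their direction.

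The remaining 6 mitochondrial entries were open reading frames, of which 5 were below the control. Of the 6, 3 (orf99-b1, orf99-b2 and orf342) passed the 5 FPKM minimum in the control alone, which fixed their direction. The exception, orf99-d, had the widest difference upward of the mitochondrial entries, at 13.9 FPKM with nitrate plus PCIB and 7.11 FPKM in the control. It was at 8.71 FPKM with nitrate alone and 6.48 FPKM with TIS108, so the group with PCIB was the high one among the 4. orf99-b1 and orf99-b2 had the same values in both groups, 3.70 FPKM with nitrate plus PCIB and 6.80 FPKM in the control, and may count the same fragments. The log2 differences of orf101-a, orf127 and orf342 lay between -0.24 and -0.22.

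**Figure D5:**
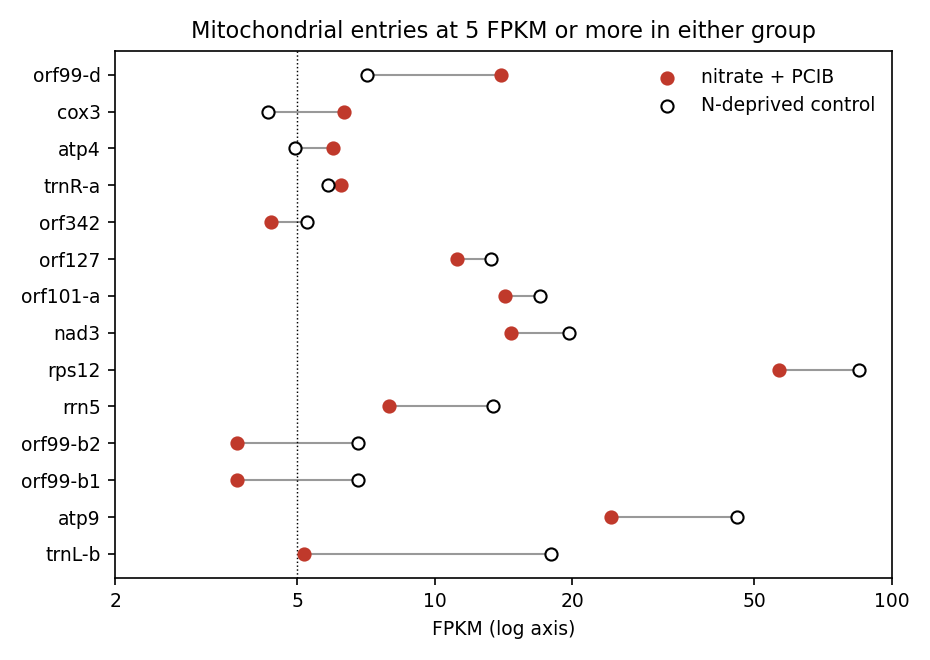
FPKM on a log axis of the 14 mitochondrial entries that reached 5 FPKM in either group, with nitrate plus PCIB (filled red) and in the N-deprived control (open), sorted by their log2 difference. The dotted line marks 5 FPKM. The widest gap is that of trnL-b, at 5.19 FPKM with nitrate plus PCIB and 18.0 FPKM in the control, and 10 of the 14 entries lie below the control.

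The 1 plastid gene in the comparison was petA, which encodes cytochrome f of the cytochrome b6f complex. It was at 5.03 FPKM with nitrate plus PCIB and 3.73 FPKM in the control, with 5.17 FPKM under nitrate alone and 5.58 FPKM under TIS108. The control was the low group among the 4, and the difference was short of the limit. petA passed the 5 FPKM minimum with nitrate plus PCIB alone, not in the control, which fixed its direction between these 2 groups.

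ENSRNA entries, annotated RNA genes of which none could be paired with a name here, stood mostly below the control. Of 206 such entries 143 lay below it and 63 exceeded it. Their median log2 difference was -0.21, beside 0.00 over all entries. With columns rescaled to the same sum 139 were below and 67 above. By the 2-fold limit 13 were lower (6.31%, against 2.00% over all entries) and 0 higher (against 1.91%). The 13 include the entries that share the values of MIR171f and MIR398b, and without the entries that match a microRNA locus 11 of 193 were lower. Over the 13 lower entries the median was 5.48 FPKM with nitrate plus PCIB and 13.01 FPKM in the control. It was 12.37 FPKM with nitrate alone and 8.09 FPKM with TIS108. Levels ran from 0.865 to 15.8 FPKM with nitrate plus PCIB and from 5.09 to 52.4 FPKM in the control. They ran from 1.75 to 40.8 FPKM with nitrate alone and from 3.40 to 49.6 FPKM with TIS108. All upper ends equal the values of MIR171f. The lower ends with nitrate alone and in the control equal those of MIR398b. Among the 167 entries at 5 FPKM or more in both groups, 112 were below and 8 were lower by the limit. These 8 were 4.79%, against 1.08% of all entries at 5 FPKM or more in both groups. Of the 167, 32.9% exceeded the control, against 50.5% of all entries so filtered. The most abundant ENSRNA entry was at 1530 FPKM with nitrate plus PCIB and 1106 FPKM in the control, opposite in direction to most of the class. How far the selection of polyadenylated RNA shaped the values of ENSRNA entries was not tested.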

How the data were processed

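Poly(A) RNA of 12 samples, 3 in each of 4 groups taken from the sample titles, was sequenced with paired-end TruSeq libraries, per the labels' protocols. The submitters' processing notes name CASAVA 1.8, Trimmomatic 0.39, TopHat2 2.0.13 and the build B73 RefGen_v4. The authors deposited a single table of FPKM values whose header names a column for each group. The sources used here do not give how replicates were combined, the program that computed FPKM, the annotation, the strand setting or any filter. The unit is relative to the total of each column, so a general change in transcript amount would not be seen, and values of short features are less stable. Depth is unknown, so intervals and detection limits are not given.

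The planned limma test over samples could not be run on 1 value per group, and the plan's limit for that case was used: at least 2-fold on the FPKM + 1 scale (pseudocount 1) with 5 FPKM in either group. The calling code was run on simulated data with 4-fold changes in well-expressed entries and little noise, so recovery was near certain. That run checks the code and not the calls reported here. A RefSeq gene table (Zm-B73-REFERENCE-NAM-5.0) matched 97 identifiers, but 0 of 26061 nuclear gene models. It was used for names alone, since its build differs. The rule for named entries was the 2 nuclear identifiers widest apart per direction and every named microRNA, mitochondrial and plastid entry of the comparison. Within lists, entries alike in all 4 columns counted as 1. The entries, lists and limits were chosen with earlier results of these data known. Alternatives were other pseudocounts, minimum levels, a 4-fold limit, rescaled columns, quantile normalization and counting identical entries as 1. Python 3.11.15, pandas 2.3.3 and numpy 2.4.6 were used.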

Additional observations from a re-analysis of the deposited data

How the results depend on the processing

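The 2-fold limit gave 299 higher and 312 lower entries. With a pseudocount of 5 there were 173 higher and 109 lower, and with a 4-fold limit 79 higher and 18 lower. Without a minimum level 471 entries were lower, and with a minimum of 10 FPKM 195 were. The mitochondrial median of -0.32 was -0.49 with a minimum of 10 FPKM and 0.025 without a minimum, and the microRNA median of 0.14 was -0.48 with a minimum of 10 FPKM. A higher or absent minimum changes which entries enter, and a larger pseudocount or fold limit is stricter by its construction. All other counts run stayed within 1.5 times and all other medians within 0.1 of those reported, among them every value under quantile normalization, after rescaling columns to equal sums and with a mean of 5 FPKM over all columns as the minimum. Of the 32 named entries, MIR398b missed the limit with a pseudocount of 5 (-0.53) and, narrowly, with columns rescaled (-0.996), and MIR169c passed it with a pseudocount of 0.1 (1.05). Signs of the named entries were the same under both pseudocounts, rescaling and quantile normalization. No paired analysis was possible because the table gives 1 value per group, and for the same reason no replicate could be left out.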

Other observations

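Mitochondrial gene families differed in how many members stood above the control with nitrate plus PCIB. Counting entries at every level, 3 of 3 cytochrome c oxidase genes, 3 of 3 cytochrome c maturation genes and 4 of 5 NADH dehydrogenase genes were above it. So were 3 of 5 ATP synthase genes, 6 of 10 ribosomal protein genes and 8 of 22 open reading frames. Of the rest, 1 of 3 ribosomal RNA genes, 1 of 2 transfer RNA genes and 0 of 2 other entries were above it. Over all nuclear entries at every level 48.8% were above the control. The families are small, and differences between them were not tested. The cytochrome b gene cob was at 4.35 FPKM with nitrate plus PCIB and 2.52 FPKM in the control, and with 2.91 FPKM under nitrate alone and 1.91 FPKM under TIS108 the group with PCIB was the high one. The complex I gene nad4 was at 2.65 FPKM with nitrate plus PCIB and 1.81 FPKM in the control, and the ATP synthase gene atp6 was at 4.36 FPKM with nitrate plus PCIB and 2.79 FPKM in the control. Of the 42 distinct mitochondrial entries under 5 FPKM in both groups 26 exceeded the control (61.9%, against 46.3% of all distinct entries under 5 FPKM). Their median log2 difference was 0.12, opposite in sign to the median of the 14 more abundant ones. Depth is unknown, so the precision of these low values is unknown too.

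Plastid genes were low, and 14 of 15 exceeded the control with nitrate plus PCIB. Their median log2 difference was 0.12. The exception was matK, the plastid intron maturase gene, at 0.346 FPKM with nitrate plus PCIB and 0.545 FPKM in the control. rbcL, which encodes the large subunit of Rubisco, was at 0.865 FPKM with nitrate plus PCIB and 0.803 FPKM in the control. Of the 14 plastid genes under 5 FPKM in both groups, 13 exceeded the control (92.9%, against 46.3% of all distinct entries under 5 FPKM). Upward log2 differences ran from 0.01 (plastid rpl16) to 0.46 (psbA), with rpoC2 at 0.03 and rbcL at 0.05. Both rpl23 entries had the same values in the control, with nitrate alone and with TIS108, so not all plastid entries are separate observations.

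Of the 12 microRNA loci under 5 FPKM in both groups, 5 were above and 7 below the control. MIR393b, of the family that targets TIR1/AFB genes in Arabidopsis, was at 3.75 FPKM with nitrate plus PCIB and 4.48 FPKM in the control. It was at 6.31 FPKM with nitrate alone and 5.26 FPKM with TIS108. MIR160b, of an ARF-targeting family, was at 1.59 FPKM with nitrate plus PCIB and 2.14 FPKM in the control, with 3.09 FPKM under nitrate alone and 3.23 FPKM under TIS108. MIR408b, of a family that targets copper protein genes, was at 1.45 FPKM with nitrate plus PCIB and 2.20 FPKM in the control, with 5.56 FPKM under nitrate alone and 5.13 FPKM under TIS108. At these loci the group with PCIB was the lowest of the 4, and at others it was the highest. MIR319b, of a family that targets TCP genes in Arabidopsis, was at 4.11 FPKM with nitrate plus PCIB and 2.73 FPKM in the control, with 2.17 FPKM under nitrate alone and 2.63 FPKM under TIS108. MIR169e and MIR396a were also highest with nitrate plus PCIB, at 3.83 and 3.11 FPKM, against 2.53 and 2.82 FPKM in the control. MIR167d, of an ARF-targeting family, was at 2.73 FPKM with nitrate plus PCIB and 1.82 FPKM in the control. MIR167g, of the same family, went the other way, at 1.755 FPKM with nitrate plus PCIB and 2.595 FPKM in the control. It was at 5.73 FPKM with nitrate alone and 3.36 FPKM with TIS108, so the MIR167 loci did not share a direction. MIR166a, unlike MIR166d, lay slightly below the control, at 1.90 FPKM with nitrate plus PCIB against 2.05 FPKM. These examples were chosen after their values were seen.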
